A study of Mus musculus with 18 samples.

Results

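The 40 genes described here, which serve the making of ribosomes, were followed in the liver over a day and a night. They encode subunits and initiation factors of RNA polymerase I, the core proteins of the small nucleolar ribonucleoproteins (snoRNPs), nucleolar phosphoproteins, and assembly factors of the small and large ribosomal subunits. The members were chosen by symbol, as a list of such genes, with earlier results of these data known. All 40 had a row among the 14451 genes of the normalized table. The tissue was whole liver of wild-type male mice 8 to 9 weeks old, kept under 12 h of light and 12 h of dark, with zeitgeber time 0 (ZT0) at lights on. The labels name no transgene or agent and give the time of collection as what sets the groups apart. Day of collection, extraction batch and sequencing lane are not given in the sources used here. Polyadenylated RNA was sequenced from 18 livers, 3 at each of ZT1, ZT5 and ZT9 in the light and ZT13, ZT17 and ZT21 in the dark, each liver from its own mouse. The values are signals on a linear scale, namely estimated reads scaled to 1000000 reads of the liver's library, and they are not divided by gene length, so they are compared within a gene and never between genes.

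Ribosome production begins in the nucleolus, where RNA polymerase I transcribes the repeated ribosomal DNA into one long precursor. Factors such as UBF (Ubtf) and TIF-IA (Rrn3) bring the polymerase to its promoter. Box C/D snoRNPs guide the methylation of ribose and box H/ACA snoRNPs the formation of pseudouridine in that precursor, the small subunit processome assembles on it and cuts out the 18S rRNA, and a separate line of assembly factors, among them the PeBoW complex, matures the 60S subunit. The pathway is among the most costly of a growing cell, and in the liver it is known to follow feeding, which mice do mainly in the dark. Food intake was not a variable of this study. In pieces of whole liver, fewer cells of a type and less RNA per cell cannot be told apart, and mRNA levels do not measure rRNA synthesis itself.

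Promoter sequences are shown for the 4 members with the lowest P-values for a 24 h rhythm that had a promoter window and for the 2 with the highest, to set rhythmic and flat members side by side. They are the 120 bases upstream of the more upstream of the RefSeq and GENCODE gene starts, 5′ to 3′ on the gene's strand, from RefSeq windows of GRCm38.p6. Capitals mark either CACGCG or CCGGAAG, read on either strand, where one fell in the stretch shown.
Nop16, chr13:54590091-54590210, minus strand: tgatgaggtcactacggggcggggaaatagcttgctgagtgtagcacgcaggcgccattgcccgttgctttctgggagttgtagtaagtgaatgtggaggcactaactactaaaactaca
Nop56, chr2:130274292-130274411, plus strand: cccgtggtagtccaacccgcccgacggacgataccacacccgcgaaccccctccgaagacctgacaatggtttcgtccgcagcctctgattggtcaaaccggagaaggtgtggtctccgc
Polr1e, chr4:45018463-45018582, plus strand: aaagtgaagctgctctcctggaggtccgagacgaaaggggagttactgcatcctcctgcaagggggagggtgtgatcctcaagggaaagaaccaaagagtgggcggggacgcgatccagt
Nolc1, chr19:46075727-46075846, plus strand: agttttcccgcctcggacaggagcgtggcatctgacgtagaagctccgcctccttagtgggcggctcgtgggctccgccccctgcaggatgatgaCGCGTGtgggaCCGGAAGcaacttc
Rrp1, chr10:78413044-78413163, minus strand: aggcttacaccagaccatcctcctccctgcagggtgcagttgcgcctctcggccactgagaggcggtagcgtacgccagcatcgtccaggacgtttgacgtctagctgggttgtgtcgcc
Bms1, chr6:118419475-118419594, minus strand: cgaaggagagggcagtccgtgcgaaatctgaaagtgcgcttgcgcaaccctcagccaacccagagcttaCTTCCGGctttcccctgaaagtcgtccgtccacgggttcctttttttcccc

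An E-box, a related element, an ETS core and a D-box, spelled out below, were searched on both strands of the full RefSeq windows of 300 bases, which run from 250 bases before the start to 50 after it. A window was found for 34 of the 40 members and not for Bop1, Fbl, Utp6, Rrp12, Nol6 and Npm1. The E-box CACGTG, the element bound by MYC, MLX partners and the clock factors BMAL1 and CLOCK, was in 8 of 34 members (23.5%), against 11.5% of 10326 measured genes with a window and 7.15% of all windows. Its 8 holders were Ltv1, Nol11, Nop2, Pes1, Rrn3, Tsr1, Utp20 and Wdr43. The related CACGCG was in 12 members (35.3%) against 18.8% of measured genes and 9.27% of all windows. The ETS core CCGGAAG was in 13 members (38.2%) against 19% and 8.86%. The D-box, as TTATGTAA or TTACGTAA, was in 0 members, against 0.91% of measured genes and 1.06% of all windows. By their letters, no 2 of these motifs can overlap. Among members with a 24 h rhythm, described below, 3 of 16 with a window held CACGTG, 5 held CACGCG and 8 held CCGGAAG, and among the other 18 these numbers were 5, 7 and 5. Nolc1 held CACGCG at position -25 and CCGGAAG at -14, counted from the RefSeq start to the first base of the match on the gene's strand. Past the stretches shown, Nop16 held CACGCG at 29, and Polr1e held CCGGAAG at 26 and CACGCG at 43. Nop56 held none of these motifs. Flat Bms1 held CCGGAAG at -108 and again at -6, and flat Rrp1 held CACGCG at 27 bases into the gene. Whether any of these motifs bears on the rhythm was not tested.

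Depth lay between 10268168 and 23242842 estimated reads per liver, with a median of 12078875. In that range the members were counted with between 23 reads (Gar1, in its lowest liver) and 4082 reads (Ncl, in its highest). By 14 clock genes, all of them rhythmic, 17 of 18 livers were nearest to the other livers of their own time point. The exception was ZT5 replicate 3, which was nearest to ZT9 and was also the deepest liver, so the 24 h, ZT17 against ZT5, algorithm and wider-list counts are given with and without it. At ZT13, replicate 1 had the highest of the 3 values for 27 of 40 members and a median deviation from the time point mean of 0.10 on the log2 scale, whereas over all genes it was the highest for 35.5%. At ZT21, replicate 1 likewise led for 26 members, with a median deviation of 0.09. At ZT21, replicate 2 was the lowest for 24 members, with a median deviation of -0.07, and at ZT9, replicate 2 was the lowest for 22, with -0.08.

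About as many members were rhythmic as were not, and nearly all rhythmic ones peaked in the dark. A 24 h cosine and sine was fitted to log2(value + 1) of all 14449 tested genes with limma, and its moderated F test was adjusted by Benjamini–Hochberg. Of the 40 members, 20 had a 24 h rhythm at an adjusted P below 0.05, beside 35.3% of all tested genes. The fitted peak fell in the dark for 19 of the 20 (47.5% of the members, beside 17.1% of all tested genes) and in the light for 1, Ncl (2.5%, beside 18.2%). Peaks of 16 of the 20 lay between ZT14 and ZT18, and the dark peaks ran from ZT14.3 (Polr1a) to ZT21.0 (Ltv1) with a median of ZT16.7. Of the 5103 rhythmic genes of the table, 48.4% peaked in the dark and 19.1% between ZT14 and ZT18. Without ZT5 replicate 3, 15 members kept the call, 14 of them with a dark peak, beside 32.6% of all genes, and Bop1, Nhp2, Nol10, Nop14 and Utp6 lost it. Without ZT13 replicate 1, 19 members were called, 18 of them with a dark peak, beside 32.7% of all genes, and Nol10 lost the call. Without ZT21 replicate 1 there were 20, 18 of them with a dark peak, beside 33.3% of all genes. There Nol10 lost the call and Taf1d gained it.

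**Figure D1:**
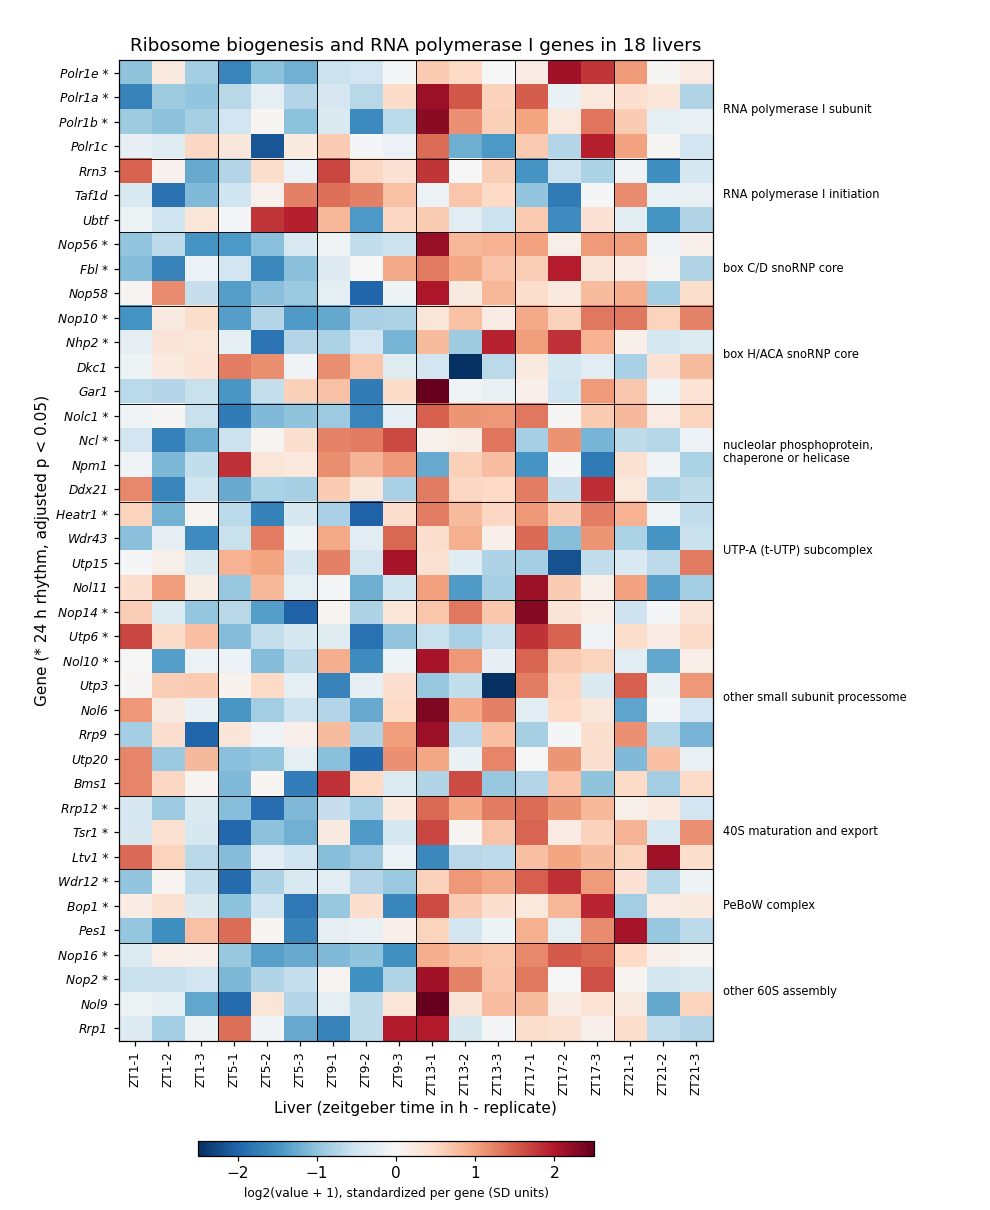
Each row is 1 of the 40 genes, grouped by role, and each column is 1 of the 18 livers in order of zeitgeber time. Colour is log2(value + 1) standardized within the gene, in SD units, and an asterisk marks the 20 genes with a 24 h rhythm. Most rows are blue at ZT5 and red at ZT13 and ZT17. Rows that are not include Ncl, Npm1, Dkc1, Utp15, Utp3, Ltv1 and the RNA polymerase I initiation genes. The ZT13-1 column is darker than its neighbours.

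The step up was most often that from ZT9 to ZT13. Of the 20 rhythmic members, 14 had their largest step up between ZT9 and ZT13, the interval that spans lights off, beside 26.3% of all rhythmic genes. Between those times the median step over all 40 members was 0.20 on the log2 scale, with 28 of 40 higher, against -0.00 for all genes. The largest step down was spread over several intervals, with 7 members between ZT17 and ZT21 (14.6% of all rhythmic genes), 5 between ZT21 and ZT1 (10%), 7 between ZT1 and ZT5 (20.5%) and 1 between ZT9 and ZT13 (26.8%). Of the 40 members, 20 had their lowest mean at ZT5 and 10 at ZT1, and 16 had their highest at ZT13 and 12 at ZT17. Summed over the members, the value averaged 956.6 at ZT5, with an SD of 12.2 over 3 livers, and 1123.8 at ZT13, with an SD of 52.7. Genes with high values weigh most in that sum. Among them are Ncl (mean 162.8 at ZT5) and Npm1 (112.4), both highest at ZT9. Amplitudes were modest. The fitted amplitude, the distance from mean to peak, had a median of 0.18 over all 40 members on the log2(value + 1) scale, where the median of all genes was 0.16, and it ran up to 0.59.

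**Figure D2:**
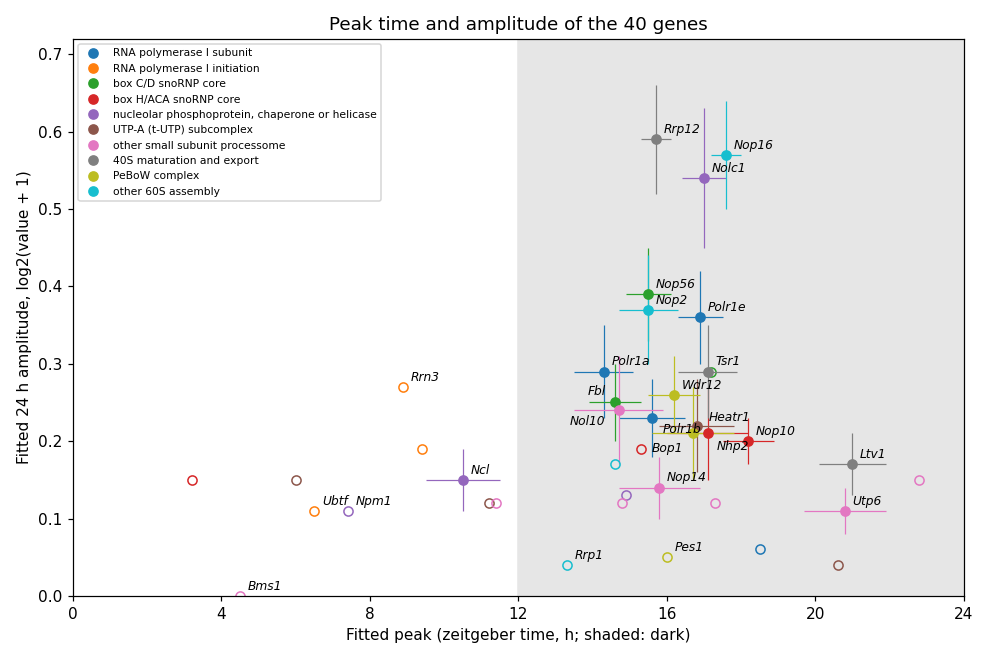
Fitted peak time (x axis, zeitgeber time in h, dark shaded) against fitted 24 h amplitude (y axis, log2(value + 1)) for the 40 genes, coloured by role. Filled points with bars of 1 standard error are the 20 genes with a 24 h rhythm, and open points are the other 20. Filled points crowd between ZT14 and ZT18, Rrp12, Nop16 and Nolc1 lie above 0.5, and Ncl is the filled point in the light.

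Of the 4 RNA polymerase I subunits, 3 were rhythmic. Polr1a encodes the largest catalytic subunit of the enzyme (chr6:71909053-71984935, plus strand, GRCm38). Its values were 14.4, 16.8 and 16.4 at ZT1, 17.4, 19.1 and 17.3 at ZT5, 18.3, 17.4 and 21.8 at ZT9, 30.1, 27.0 and 22.3 at ZT13, 26.8, 19.3 and 21.0 at ZT17, and 21.6, 21.1 and 17.2 at ZT21. All 3 livers of ZT13 lay above all 9 livers of the light phase. The fitted peak of Polr1a was at ZT14.3 ± 0.8 (SE) with an amplitude of 0.29 ± 0.06 (adjusted P = 0.00329), and the mean at ZT13 was 1.67 times that at ZT1. Polr1b, the second-largest subunit, had 13.5, 13.2 and 13.6 at ZT1 and 22.3, 18.7 and 17.1 at ZT13, without overlap (amplitude 0.23 ± 0.05, peak ZT15.6 ± 0.9, adjusted P = 0.00683).

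Polr1e encodes PAF53, a subunit with a part in initiation (chr4:45018583-45036565, plus strand). Its values were 3.35, 4.68 and 3.49 at ZT1, 2.80, 3.34 and 3.17 at ZT5, 3.81, 3.87 and 4.36 at ZT9, 5.21, 4.99 and 4.39 at ZT13, 4.63, 7.45 and 6.89 at ZT17, and 5.78, 4.42 and 4.64 at ZT21. Every dark-phase liver lay above every liver of ZT5 and ZT9. Polr1e had the largest amplitude of the 4 subunits, 0.36 ± 0.06, and a peak at ZT16.9 ± 0.6 (adjusted P = 4.50e-04). Polr1c, a subunit shared with RNA polymerase III, did not pass the test. Its values were 13.7, 9.80 and 13.6 at ZT5, its lowest time point, and 14.4, 11.9 and 17.1 at ZT17, its highest, and these overlapped (amplitude 0.06 ± 0.06, adjusted P = 0.684).

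The 3 initiation genes did not pass the 24 h test, and their fitted peaks lay in the light. Rrn3 encodes TIF-IA, which joins the polymerase to the promoter and is a known point of control by nutrients. Its values were 32.8, 23.1 and 16.2 at ZT1, 18.6, 25.2 and 21.6 at ZT5, 34.3, 25.7 and 24.6 at ZT9, 35.5, 22.5 and 26.3 at ZT13, 15.3, 19.5 and 18.3 at ZT17, and 21.9, 15.04 and 19.98 at ZT21. Its 3 livers at ZT1 alone spanned from 16.2 to 32.8. The fitted amplitude was 0.27 ± 0.10 with a peak at ZT8.9 ± 1.4 (adjusted P = 0.0908). Ubtf encodes UBF, which keeps active ribosomal DNA open. Its values were 41.6, 39.8 and 43.7 at ZT1, 42.0, 51.9 and 52.8 at ZT5, 46.4, 35.7 and 44.9 at ZT9, 45.4, 40.9 and 39.7 at ZT13, 45.5, 35.1 and 44.0 at ZT17, and 40.8, 35.5 and 38.7 at ZT21. Apart from ZT5 and ZT21, the livers of every pair of times overlapped (amplitude 0.11 ± 0.05, peak ZT6.5 ± 1.9, adjusted P = 0.251). Taf1d, a subunit of the promoter selectivity factor SL1, had 4.95, 3.59 and 4.25 at ZT1 and 7.11, 6.94 and 6.23 at ZT9. It differed between the 6 time points (adjusted P = 0.0416) without passing the 24 h test (adjusted P = 0.124).

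Of the box C/D snoRNP core, Nop56 and fibrillarin rose in the dark. Nop56 is a scaffold of the particle (chr2:130274430-130279313, plus strand). Its values were 17.1, 18.6 and 15.2 at ZT1, 15.4, 16.9 and 19.9 at ZT5, 21.4, 18.8 and 19.2 at ZT9, 36.8, 26.6 and 26.9 at ZT13, 27.9, 22.6 and 28.3 at ZT17, and 28.1, 21.4 and 22.5 at ZT21. All 9 dark-phase livers lay above all 9 light-phase livers. The amplitude was 0.39 ± 0.06 and the peak at ZT15.5 ± 0.6 (adjusted P = 3.69e-04). Fbl, the methyltransferase fibrillarin, had 18.5, 15.4 and 16.9 at ZT5 and 22.0, 27.1 and 21.0 at ZT17 (amplitude 0.25 ± 0.05, peak ZT14.6 ± 0.7, adjusted P = 0.00132). Nop58, the partner of Nop56 in the particle, had 11.6, 12.7 and 13.1 at ZT5 and 28.01, 17.7 and 20.7 at ZT13. Those livers did not overlap, but its spread within ZT1, ZT13 and ZT21 was wide, and it stayed just outside the threshold (amplitude 0.29 ± 0.09, peak ZT17.2 ± 1.2, adjusted P = 0.0547). Genes of snoRNAs lie inside 7 of the 40 members. Taf1d shares exon bases with 8 snoRNA genes on its own strand, Nop56 with 4, Ncl with 2 and Nop58 with 1, so reads from these could have been counted for the host.

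Of the box H/ACA core, Nop10 and Nhp2 rose in the dark. Nop10 had 29.5, 31.8 and 29.4 at ZT5 and 40.3, 36.9 and 39.9 at ZT21, a ratio of means of 1.29 with little spread (amplitude 0.20 ± 0.03, peak ZT18.2 ± 0.7, adjusted P = 0.00107). Nhp2, which binds the guide RNA, had 15.2, 11.5 and 13.97 at ZT5 and 19.0, 21.6 and 18.4 at ZT17 (amplitude 0.21 ± 0.06, adjusted P = 0.0332). Dkc1 encodes dyskerin, the pseudouridine synthase of the same particle, and it did not pass. Its 12.4, 8.20 and 12.0 at ZT13 lay below its 16.3, 16.0 and 13.2 at ZT5, with a fitted peak at ZT3.2 ± 1.6 (amplitude 0.15 ± 0.06, adjusted P = 0.146). Gar1 had 3.01, 2.96 and 3.11 at ZT1 and 7.09, 3.53 and 3.43 at ZT13, where replicate 1 alone set the mean (amplitude 0.19 ± 0.09, adjusted P = 0.224).

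Of the 4 nucleolar phosphoproteins, chaperones and helicases, Nolc1 peaked in the dark and Ncl in the light. Nolc1 encodes NOPP140, a chaperone of snoRNPs (chr19:46075863-46085530, plus strand). Its values were 14.5, 18.1 and 18.8 at ZT5 and 43.9, 38.4 and 38.3 at ZT13, a ratio of means of 2.35. The amplitude of 0.54 ± 0.09 was the third highest of the 40 and the peak was at ZT17.0 ± 0.6 (adjusted P = 6.34e-04). Ncl encodes nucleolin, which binds the precursor rRNA and the ribosomal DNA (chr1:86344719-86359400, minus strand). Its values were 155.0, 136.7 and 143.7 at ZT1, 154.1, 164.2 and 170.0 at ZT5, 185.2, 186.3 and 193.2 at ZT9, 164.7, 166.1 and 187.0 at ZT13, 149.5, 183.0 and 144.6 at ZT17, and 152.7, 151.2 and 160.5 at ZT21. The 3 livers of ZT9 lay above all other livers except 1 of ZT13. With an amplitude of 0.15 ± 0.04 and a peak at ZT10.5 ± 1.0 (adjusted P = 0.0179), Ncl was the one rhythmic member with a peak in the light, before lights off.

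Npm1 encodes nucleophosmin, an abundant nucleolar chaperone. Its values were 103.8, 95.01 and 99.2 at ZT1, 122.5, 107.5 and 107.0 at ZT5, 115.8, 112.6 and 115.0 at ZT9, 93.8, 110.1 and 111.8 at ZT13, 92.2, 104.3 and 89.8 at ZT17, and 108.2, 104.0 and 97.8 at ZT21. Its ZT9 livers lay above those of ZT17, but it did not pass the test (amplitude 0.11 ± 0.04, peak ZT7.4 ± 1.3, adjusted P = 0.0843). Ddx21, an RNA helicase of the nucleolus, had 34.6, 36.5 and 36.3 at ZT5 and 46.2, 37.3 and 49.3 at ZT17 and did not pass either (amplitude 0.13 ± 0.05, peak ZT14.9 ± 1.4, adjusted P = 0.0884).

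**Figure D3:**
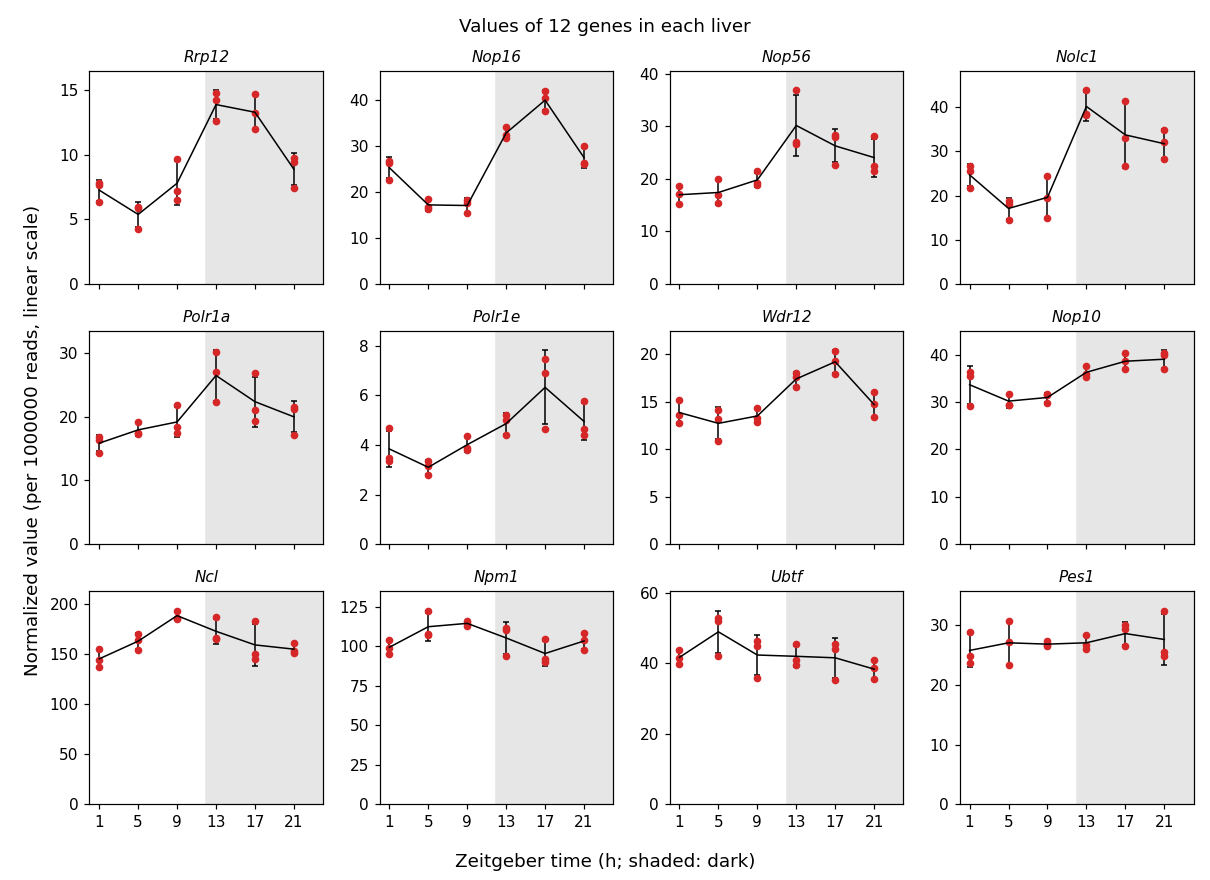
Values of 12 genes (y axis, normalized value on a linear scale from 0) by zeitgeber time (x axis, h, dark shaded). Red points are single livers, and the black line joins the means of 3 livers with bars of 1 SD. Rrp12, Nop16, Nop56 and Nolc1 step up between ZT9 and ZT13, Ncl is highest at ZT9, and Pes1 overlaps between its lowest and highest time points.

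In the small subunit processome, 1 of 4 members of the UTP-A subcomplex, which links transcription to processing, and 3 of 8 other members were rhythmic. Heatr1, the largest protein of UTP-A, had 17.4, 14.7 and 18.2 at ZT5 and 23.2, 21.6 and 23.99 at ZT17, without overlap (amplitude 0.22 ± 0.06, peak ZT16.8 ± 1.0, adjusted P = 0.0201). Nol11, a vertebrate member of UTP-A, had 12.6, 11.5 and 12.2 at ZT9 and 15.1, 13.4 and 12.8 at ZT17 (amplitude 0.04 ± 0.04, adjusted P = 0.666). Utp15 and Wdr43 of the same subcomplex did not pass (adjusted P = 0.120 and 0.0805), and their fitted peaks were in the light, at ZT6.0 and ZT11.2.

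Among the other processome genes, Nop14 had 14.7, 13.7 and 12.8 at ZT5 and 19.9, 16.3 and 16.1 at ZT17, without overlap (amplitude 0.14 ± 0.04, peak ZT15.8 ± 1.1, adjusted P = 0.0273). Nol10 (amplitude 0.24 ± 0.07, adjusted P = 0.0420) and Utp6 (amplitude 0.11 ± 0.03, adjusted P = 0.0385) passed the test near its threshold, and Utp6 peaked late, at ZT20.8 ± 1.1. Nol6 differed between the 6 time points (adjusted P = 0.0353) but not by the 24 h curve (adjusted P = 0.234). It had 16.9, 18.4 and 19.2 at ZT5 and 28.4, 23.6 and 24.5 at ZT13. Its means at ZT1 (21.84) and ZT17 (21.15) lay between those of ZT5 and ZT13. Bms1, the GTPase of the processome (chr6:118383381-118419474, minus strand), was flat. Its values were 25.3, 27.4 and 24.3 at ZT5, its lowest time point, and 30.8, 28.2 and 26.7 at ZT9, its highest (amplitude 0.00 ± 0.04, adjusted P = 1.00). Utp3, Utp20 and Rrp9 did not pass (adjusted P = 0.0549, 0.353 and 0.257).

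All 3 genes of 40S maturation and export were rhythmic. Rrp12, a HEAT-repeat protein needed to export pre-ribosomes, had the lowest P-value and the highest amplitude of the 40 (chr19:41862851-41896173, minus strand). Its values were 7.65, 6.32 and 7.79 at ZT1, 5.96, 4.28 and 5.89 at ZT5, 7.19, 6.48 and 9.70 at ZT9, 14.8, 12.6 and 14.2 at ZT13, 14.7, 13.2 and 12.0 at ZT17, and 9.40, 9.74 and 7.45 at ZT21. All livers of ZT13 and ZT17 lay above all other livers. The mean at ZT13 was 2.58 times that at ZT5, with an amplitude of 0.59 ± 0.07 and a peak at ZT15.7 ± 0.4 (adjusted P = 1.65e-05). Tsr1 had 14.3, 17.3 and 16.7 at ZT5 and 29.9, 21.6 and 24.6 at ZT13 (amplitude 0.29 ± 0.06, peak ZT17.1 ± 0.8, adjusted P = 0.00488). Its exons share 32.3% of their bases with Srr on the opposite strand, and the library kit and counting are not stated to use strand, so reads of these 2 genes cannot be told apart there. Ltv1 peaked last, at ZT21.0 ± 0.9, with 10.3, 11.5 and 11.6 at ZT13 and 13.4, 16.2 and 13.3 at ZT21 (amplitude 0.17 ± 0.04, adjusted P = 0.0108).

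Wdr12 and Bop1 of the PeBoW complex were rhythmic and their partner Pes1 did not pass. Wdr12 had 10.8, 13.2 and 14.1 at ZT5 and 19.3, 20.3 and 17.9 at ZT17 (amplitude 0.26 ± 0.05, peak ZT16.2 ± 0.7, adjusted P = 8.49e-04). Bop1 had 17.6, 19.1 and 15.5 at ZT5 and 21.6, 23.8 and 28.3 at ZT17 (amplitude 0.21 ± 0.06, adjusted P = 0.0250). In both genes the ZT17 livers lay above the ZT5 livers. Pes1, pescadillo, had 24.9, 23.7 and 28.9 at ZT1 and 29.3, 26.5 and 30.1 at ZT17, which overlapped, with an amplitude of 0.05 ± 0.05 (adjusted P = 0.685). The difference between Pes1 and its partners was not tested.

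Nop16 and Nop2 led the other 60S factors. Nop16, a nucleolar protein of the pre-60S particle known as a MYC target, lies at chr13:54584185-54590090 on the minus strand. Its values were 22.6, 26.8 and 26.3 at ZT1, 18.5, 16.2 and 16.7 at ZT5, 17.6, 18.2 and 15.3 at ZT9, 34.1, 32.4 and 31.8 at ZT13, 37.5, 41.8 and 40.3 at ZT17, and 29.9, 26.3 and 25.97 at ZT21. The livers of ZT5 and ZT9 lay below all others, those of ZT17 above all others, and ZT13 in second place, with no overlap between these levels. The amplitude was 0.57 ± 0.07 and the peak at ZT17.6 ± 0.4 (adjusted P = 2.03e-05). Nop16 was also the 1 member of 40 (2.5%, beside 0.872% of all genes) with a 12 h term (amplitude 0.23, adjusted P = 0.0291), a term that leaving out any of 6 single livers removed. Nop2, a methyltransferase of the 28S rRNA, had 13.2, 14.4 and 15.1 at ZT5 and 29.5, 23.9 and 20.9 at ZT13 (amplitude 0.37 ± 0.07, peak ZT15.5 ± 0.8, adjusted P = 0.00276). Nol9, a kinase that acts on rRNA ends, did not pass (adjusted P = 0.0548). Rrp1 (chr10:78400384-78413043, minus strand) had 50, 48.2 and 50.6 at ZT1 and 58.3, 49.7 and 50.9 at ZT13, with an amplitude of 0.04 ± 0.04 (adjusted P = 0.697).

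Time points 12 h apart were then compared in 3 pairs that share no liver. At ZT13, 8 members were higher than at ZT1 (8 of 40, beside 6.8% of all tested genes), namely Rrp12, Nop56, Polr1a, Nolc1, Nop2, Polr1b, Fbl and Nop16. The log2 difference was 0.85 ± 0.15 (SE) for Rrp12, 0.78 ± 0.15 for Nop56 and 0.70 ± 0.14 for Polr1a (adjusted P = 0.00135, 0.00209 and 0.00335). No member was lower by the limma contrast (0 of 40, beside 7.42% of all genes), although 4 were at an unadjusted P below 0.05, namely Dkc1, Utp3, Utp6 and Ltv1. Shares of all genes at an unadjusted P were not worked out for any of the contrasts. Without ZT13 replicate 1 only Rrp12, Nop56, Polr1a and Polr1b of the 8 remained, beside 9.34% of all genes called in either direction. With all livers, 6.8% of all genes were higher and a further 7.42% lower. The median difference over the 40 was 0.23, with 32 above 0, against a median of 0.00 for all genes.

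The contrast of ZT17 with ZT5 gave the most calls. Higher at ZT17 were 14 members (35.0%, beside 9.26% of all genes), namely Polr1e, Nop56, Fbl, Nhp2, Nop10, Nolc1, Heatr1, Nop14, Rrp12, Tsr1, Bop1, Wdr12, Nop2 and Nop16. The log2 difference was 1.17 ± 0.10 for Nop16 (adjusted P = 2.11e-06) and 1.17 ± 0.15 for Rrp12 (adjusted P = 9.58e-05), and the ratios of means were 2.33 and 2.47. Next in size were Nolc1 (0.93 ± 0.17), Polr1e (0.82 ± 0.15) and Nop2 (0.62 ± 0.16). No member was lower (0 of 40 by limma, beside 10.5% of all genes), with Npm1 and Utp15 lower at an unadjusted P below 0.05. Leaving out ZT17 replicate 1 reduced the 14 to 9, beside 13.7% of all genes called in either direction. With all livers, 9.26% of all genes were higher and a further 10.5% lower. Leaving out ZT5 replicate 3 reduced them to 11, without Heatr1, Nop14 and Bop1, and the share of all genes was not worked out there. Polr1e, Nop10, Nolc1, Rrp12, Wdr12 and Nop16 kept the call whichever single liver was left out. The median difference was 0.25, with 32 of 40 above 0, against -0.02 for all genes.

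At ZT21, 3 members were above their ZT9 level (7.5%, beside 5.63% of all genes). These were Nolc1 (0.69 ± 0.17, adjusted P = 0.0182), Nop16 (0.66 ± 0.10, adjusted P = 4.29e-04) and Nop10 (0.32 ± 0.09, adjusted P = 0.0290). Nop16 alone kept the call whichever liver was left out, since leaving out ZT9 replicate 2, ZT21 replicate 1 or ZT21 replicate 3 left it as the 1 call. In that order, these removals left 7.33%, 6.69% and 7.12% of all genes called in either direction. With all livers, 5.63% of all genes were higher and a further 5.07% lower. No member was lower (0 of 40 by limma, beside 5.07%), with Rrn3 and Ncl lower at an unadjusted P below 0.05. Over all 6 time points, without a curve, 14 members differed (35.0%, beside 26.3% of all genes), and Taf1d and Nol6 were the 2 of them without a 24 h rhythm.

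**Figure D4:**
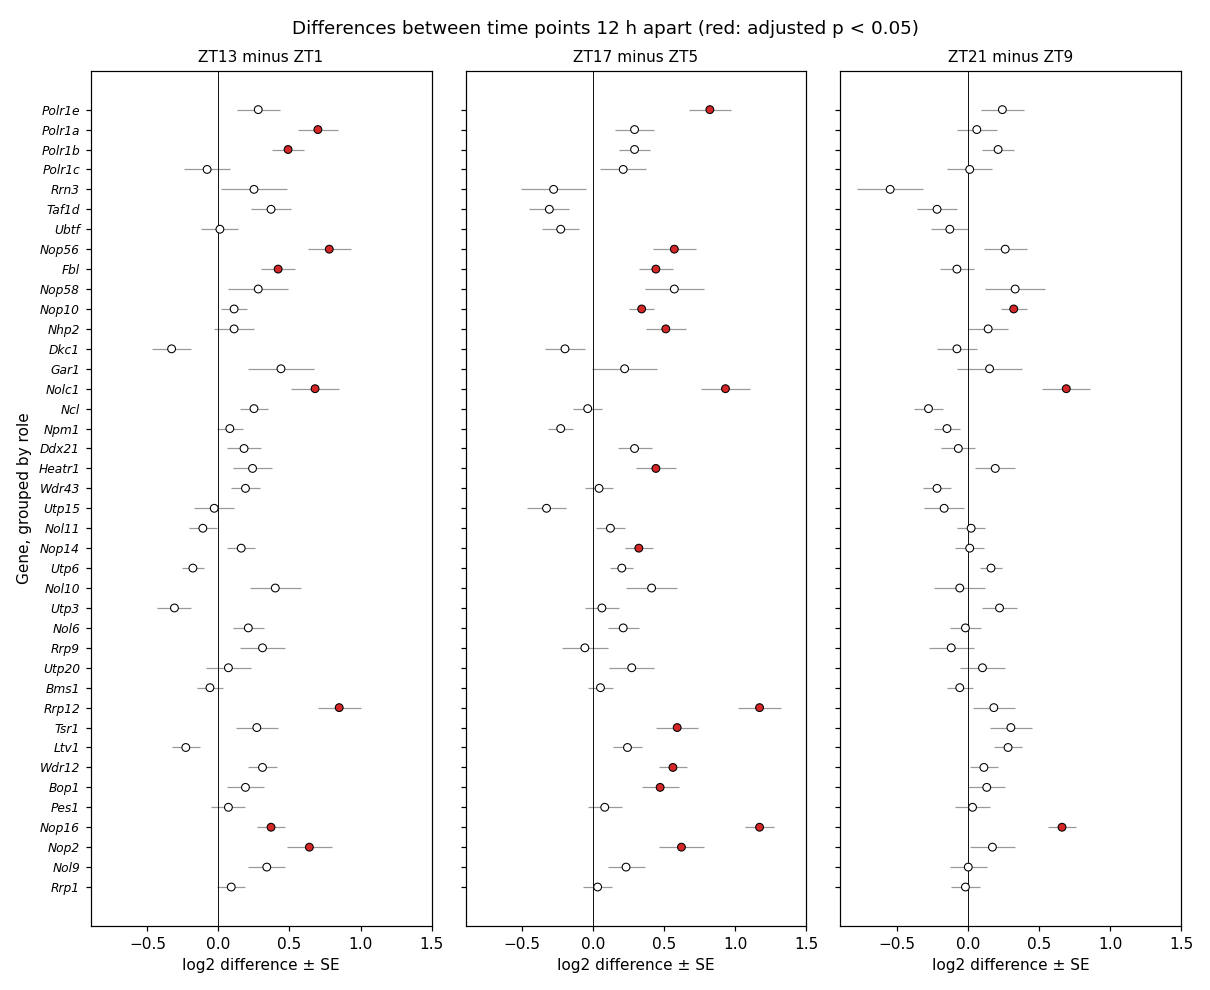
Log2 differences of 3 pairs of time points 12 h apart (x axes, with bars of 1 standard error) for the 40 genes in order of role (y axis). Red points passed an adjusted P below 0.05, which were 8, 14 and 3 genes from left to right. Every red point lies to the right of 0, and Nolc1 and Nop16 are red in all 3 panels.

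The study's own question was how well detection algorithms find circadian genes, and versions of 3 of these, written again here, were applied to the same values. JTK, a rank test against cosine orders, called 10 members (25%, beside 14.1% of all genes). MC, which joins JTK with a Lomb–Scargle periodogram, called 13 (32.5%, beside 18.3%). The cosine curve of CircaN, a non-linear fit with a free period that also asks for an R-squared of at least 0.7, called 4 (4 of 40, beside 11.2%). Without ZT5 replicate 3 the counts were 8 for JTK, 9 for MC and 4 for the CircaN cosine. The shares of all genes were not worked out there, so a drop particular to the members cannot be read from these counts. With all livers, all 3 called Nop10, Rrp12, Wdr12 and Nop16, whose R-squared values were 0.794, 0.890, 0.795 and 0.938. Another 6 (Polr1a, Polr1e, Nop56, Fbl, Nolc1 and Nop2) were called by JTK and MC, and Utp6, Nop14 and Bop1 by MC alone. The R-squared minimum set the low CircaN count, since 36 members had an adjusted P below 0.05 for that curve without it. That P joins a test of the amplitude with one of a period already held between 20 and 28 h. Members with a poor fit passed it too, such as Nol11 and Utp20, with R-squared values of 0.172 and 0.260. The share of all genes without the minimum was not worked out. For Fbl the R-squared was 0.694 and for Nolc1 0.699, below that minimum. For 27 members none of the 3 made a call, among them Polr1b, Ncl, Tsr1, Nhp2, Heatr1, Nol10 and Ltv1, which passed the limma test.

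A wider list held 119 other ribosome biogenesis genes with a row. Of these, 43 had a 24 h rhythm, a share near that of all genes, and 37 of the 43 peaked in the dark and 6 in the light. Without ZT5 replicate 3, 38 were called, beside 32.6% of all genes. By the same test 5 of 9 further polymerase I and initiation genes, 15 of 35 processome genes, 15 of 48 large subunit genes, 7 of 19 exosome and trimming genes and 1 of 8 snoRNP assembly genes were called. The 2 lowest P-values belonged to genes with a peak in the light. Rcl1, a processome protein needed to process 18S rRNA, had 100.4, 89.4 and 97.7 at ZT1, 128.9, 132.2 and 111.6 at ZT5, and 66.9, 66.6 and 71.6 at ZT17 (amplitude 0.43 ± 0.04, peak ZT5.2 ± 0.4, adjusted P = 3.50e-06). Its ZT5 livers all lay far above its ZT17 livers. Gltscr2 (also known as Nop53), which recruits the exosome to the pre-60S particle, was alike in time, with a mean of 70.7 at ZT5 (SD 4.76) and of 47.7 at ZT17 (SD 1.76, 3 livers each, amplitude 0.28 ± 0.03, adjusted P = 3.02e-05).

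The next 3 peaked in the dark. Nat10, which acetylates cytidines of the 18S rRNA, had means of 16.3 (SD 2.11) at ZT9 and 28.6 (SD 3.32) at ZT17 (peak ZT19.6 ± 0.5, amplitude 0.37 ± 0.05, adjusted P = 5.21e-05). Mrto4, a pre-60S factor, had a mean of 13.0 (SD 1.71) at ZT5 and 19.9 (SD 0.898) at ZT13 (peak ZT16.7 ± 0.5, adjusted P = 1.74e-04). Mybbp1a, a nucleolar partner of RNA polymerase I, averaged 41.6 (SD 4.24) at ZT5 and 67.6 (SD 7.35) at ZT17 (peak ZT16.0 ± 0.5, adjusted P = 1.79e-04). The highest P-values of the list were those of Shq1 and Gnl3l, each with an amplitude of 0.01 (adjusted P = 0.979).

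Of 10 regulators around MYC, whose dimers switch on ribosome production, 3 had a 24 h rhythm, a share near the 35.3% of all tested genes. Mlx, the shared partner of the glucose-sensing factors, peaked at ZT16.1 ± 0.6, with means from 27.7 at ZT9 to 41.3 at ZT17 (amplitude 0.27 ± 0.04, adjusted P = 4.94e-04). Max, the partner of MYC, peaked at ZT13.5 ± 0.9 (amplitude 0.18 ± 0.04, adjusted P = 0.00947). Mxd1, an antagonist of MYC, peaked in the light at ZT7.0 ± 0.8 (amplitude 0.31 ± 0.06, adjusted P = 0.00339). Myc itself varied widely within time points, with 19.6, 47.5 and 11.2 at ZT13 and 1.48, 28.3 and 1.66 at ZT17, and it did not pass the test (amplitude 0.70 ± 0.39, peak ZT13.2 ± 2.2, adjusted P = 0.337). Its highest mean, 26.1 at ZT13, thus rested on livers that differed several-fold. The other 6 (Mycn, Mxd4, Mxi1, Mnt, Mlxipl and Mga) did not pass, with Mxi1 nearest (adjusted P = 0.0563).

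Markers of other cell types of the liver were read as a check. Of 48 markers measured, 12 had a 24 h rhythm, a share below the 35.3% of all tested genes, 7 with a peak in the dark and 5 in the light. The 5 in the light, with peaks between ZT6.9 and ZT8.5, were Marco and Csf1r (Kupffer cell), Stab2 and Kdr (endothelial) and Col3a1 (stellate cell). The cholangiocyte markers Epcam, Krt19 and Sox9 and the neutrophil marker Ly6g peaked in the dark, at ZT12.6, ZT19.1, ZT20.9 and ZT15.7. Their mean values were low, at 1.37, 1.58, 5.74 and 0.530. Summed endothelial markers lay between 172.6 and 219.5 in the livers of ZT5 and between 86.1 and 170.2 in those of ZT17, and summed Kupffer cell markers between 148.7 and 207.6 and between 86.0 and 189.4. Summed stellate cell markers lay between 174.4 and 270.3 at ZT5 and between 180.8 and 197.1 at ZT17, and cholangiocyte markers between 31.5 and 45 and between 48.1 and 50.2. Summed hepatocyte markers, carried by Alb, were highest at ZT17, between 86343.0 and 97718.1, and lowest at ZT9, between 67295.3 and 71690.5. Hnf4a, Ttr and Cyp3a11, 3 of the 6 hepatocyte markers, were rhythmic with peaks at ZT12.8, ZT21.7 and ZT20.8. Lymphocyte and neutrophil markers were near the floor, with sums of at most 4.18 and 6.50, and erythroid sums ran from 108.3 to 673.9 with no gene called. Their part in the rhythm of the members was not tested. None of the 6 markers of cycling cells had a 24 h rhythm (0 of 6 by limma, with 0 at an unadjusted P below 0.05), and their sum lay between 5.44 and 10.3 at ZT13 and between 8.04 and 14.3 at ZT5.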

How the data were processed

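The authors trimmed the reads with Cutadapt, mapped them on the transcriptome of GRCm38 (Ensembl) and quantified them with RSEM 1.2.20, per the submitters' processing notes and the paper. They normalized the estimated counts with limma and deposited a signal on a linear scale, the estimated count plus 0.5 per 1000000 reads of an effective library size, with 1 column per liver. Of 5 mice per group, the 3 with the best RNA were sequenced. The value of 1 read was worked out from each liver's lowest value, which stands for 0 reads. In each liver 39.1% to 47.9% of values were within 0.005 of a whole number of reads, and count models, which need whole reads, were left out.

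Here limma 3.58.1 (R 4.3.3) was fitted to log2(value + 1) of 14449 genes, without 2 genes that stood at 0 reads throughout. A 24 h cosine and sine, a 12 h pair added to it, the 6 time points and 3 contrasts of time points 12 h apart were tested with Benjamini–Hochberg adjustment over all genes. JTK (18 orders of 20, 24 and 28 h), MC and the cosine curve of CircaN (period held between 20 and 28 h) were written again in Python 3.11.15 (scipy 1.17.1, numpy 2.4.6). The other curves of CircaN were not run, because the text of the paper does not give their constants. Scripts were tested on simulated data. A dark peak is a fitted peak between ZT12 and ZT24. Alternatives were a pseudocount of 0.1, a mean value of at least 1, quantile normalization, voom weights on the recovered reads, log2 depth as a covariate, other q-value and R-squared limits, and leaving out each liver.

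The members and all lists were chosen with earlier results of these data known. Within each role, the genes with the lowest and highest 24 h P-value were given with single livers, all 18 livers were printed for Polr1a, Ubtf, Rrn3, Nop56, Ncl, Npm1 and the 4 members with the lowest P-values, and 5 lowest and 2 highest P-values were named from the wider list. Other members' values were added to these to describe each role. Positions are from GENCODE M21 (GRCm38).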

Additional observations from a re-analysis of the deposited data

How the results depend on the processing

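Under every alternative 14 of the 20 rhythmic members kept the 24 h call (Polr1a, Polr1b, Polr1e, Nop56, Fbl, Nop10, Ncl, Nolc1, Rrp12, Tsr1, Ltv1, Wdr12, Nop2 and Nop16). Of the other 6, Utp6 lost it under 12 of 23 alternatives, Nol10 under 11, Nhp2 under 6, Nop14 under 4, Bop1 under 2 and Heatr1 under 1, and 12 members were called under none. The remaining 8 gained the call under some, Utp3 under 7, Nop58 under 5, Nol9 under 4, Ddx21 and Npm1 under 2 each, and Rrn3, Taf1d and Utp15 under 1 each. No member called in the main fit or in an alternative had its fitted 24 h peak moved by more than 6 h between them. The directions of the contrasts were not compared across alternatives. Leaving out 1 liver at a time, the members with a 24 h rhythm numbered 15 to 23 (15 without ZT5 replicate 3), those that differed between the 6 time points 10 to 15, those with a 12 h term 0 to 1, and the wider list 38 to 44. With 0, limma gave 3 to 7 members at an unadjusted P below 0.05 for the 12 h term. The contrasts gave 4 to 9 members for ZT13 against ZT1 (4 without ZT13 replicate 1), 9 to 15 for ZT17 against ZT5 (9 without ZT17 replicate 1) and 1 to 4 for ZT21 against ZT9 (1 without ZT9 replicate 2, ZT21 replicate 1 or ZT21 replicate 3). JTK called 7 to 11, MC 8 to 12 (8 without ZT5 replicate 1) and the CircaN cosine 4 to 9 (9 without ZT17 replicate 2). Over all tested genes, leaving out 1 liver left between 4573 and 5088 with a 24 h rhythm, beside 5103 with all livers. Apart from those given above, shares of all genes were not worked out for the other counts of this paragraph. A change particular to the members cannot be read from those counts. Log2 depth as a covariate raised the members with a 12 h term to 2. A q-value limit of 0.01 left 0 members for JTK and 7 for MC. By the JTK P, corrected for its orders but not yet over genes, 18 members were below 0.05. On log2 values the CircaN cosine called 8, and without the R-squared minimum 36. Apart from the limits of q and R-squared, which set the counts by their construction, the cause was not tested. Depth limits Gar1 most, with 23 reads in its lowest liver. No paired analysis was possible because each liver came from its own mouse and the labels give the groups no shared replicate numbers.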
